A study of Mus musculus with 12 samples.

Results

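The MEF2 transcription factors and the muscle methyltransferase SMYD1 were followed in RNA from whole mouse embryos at E12.5. The members are 5 genes, *Mef2a*, *Mef2b*, *Mef2c*, *Mef2d* and *Smyd1*, chosen by name from the 23420 genes listed in both tables of counts. All 5 passed the filter on low counts in both lines. In the *Carm1* line, 3 embryos homozygous for the null allele Carm1tm1Mtb (Carm1 KO/KO) were compared with 3 wild-type embryos, all of strain C57BL/6. In the *Pax3* line, 3 embryos homozygous for the Splotch allele Pax3Sp2H (Pax3 Sp2H/Sp2H) were compared with 3 wild-type embryos, all of a mixed strain kept as a closed colony in another laboratory. Both alleles are germline alleles, all embryos came from intercrosses of heterozygotes, and each embryo gave 1 library of polyadenylated RNA. Litters are not given, so *P* values measure the spread between single embryos. Line, strain and laboratory cannot be told apart.

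MEF2 proteins bind A/T-rich DNA elements as dimers and, together with the MYOD family, activate genes of muscle differentiation. Class IIa histone deacetylases hold them inactive, p38 and ERK5 kinases activate them, and the arginine methyltransferase CARM1 is one of their coactivators. *Mef2c* is active in skeletal muscle, heart, endothelium, neural crest and neurons. *Smyd1* encodes a SET and MYND domain methyltransferase of skeletal and cardiac muscle that works with myosin chaperones in thick filament assembly, and it is a known target of MEF2C in the developing heart. PAX3 acts upstream of the MYOD family in muscle progenitors.

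Libraries held 17183344 to 23297860 counts in the *Carm1* line and 17425749 to 23518692 in the *Pax3* line. Levels are given as counts per 1000000 counts of the library (CPM), scaled by edgeR's TMM factors, as mean ± SD with n = 3, and fold changes as null over wild type on the log2 scale. FDR adjusted *P* values come from edgeR's quasi-likelihood test over all genes tested in a line, and genes below 0.05 were called. *Carm1* stood at 72.3 ± 3.55 CPM in Carm1 KO/KO embryos and at 144 ± 6.99 CPM in their wild-type embryos, and *Pax3* at 20.8 ± 2.40 CPM in Pax3 Sp2H/Sp2H embryos and at 28.1 ± 2.99 CPM in theirs (log2 fold change −0.998 and −0.43, FDR adjusted *P* = 1.2e-15 and 0.0014). *Pax3* RNA rose in the *Carm1* line (log2 fold change 0.37, FDR adjusted *P* = 0.0010), while *Carm1* RNA was not called in the *Pax3* line (−0.07, FDR adjusted *P* = 0.38). Y-linked counts were present in wild-type replicate 3 of the *Carm1* line, and in wild-type replicates 2 and 3 and null replicate 3 of the *Pax3* line.

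The bases before the start sites of 4 of the genes show how their start regions differ, with *Smyd1* and *Mef2c* chosen because they were the members called in both lines. Sequences and start sites come from RefSeq on GRCm38.p6, which lists 1 start window for *Smyd1*, *Mef2a*, *Mef2b* and *Mef2d* and 3 for *Mef2c*, and all 7 windows of 300 bases were searched on both strands for the MEF2 site, the CArG box of SRF, the E-box of the MYOD family (CANNTG) and TATAAA. Capitals mark a match, and TTTATA is TATAAA read on the other strand. Each line runs 5′ to 3′ on the strand of the gene and holds the 120 bases before the start, with 8 more bases for *Mef2a*.
Smyd1, chr6:71262282-71262401, minus strand: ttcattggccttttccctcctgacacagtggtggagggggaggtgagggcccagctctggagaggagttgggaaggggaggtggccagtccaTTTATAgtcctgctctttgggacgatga
Mef2c first start, chr13:83503914-83504033, plus strand: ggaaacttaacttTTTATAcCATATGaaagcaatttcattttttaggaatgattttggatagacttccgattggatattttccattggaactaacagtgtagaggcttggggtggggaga
Mef2c second start, chr13:83523536-83523655, plus strand: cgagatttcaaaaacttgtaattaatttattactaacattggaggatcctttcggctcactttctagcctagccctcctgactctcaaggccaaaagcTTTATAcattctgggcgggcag
Mef2a, chr7:67372851-67372978, minus strand: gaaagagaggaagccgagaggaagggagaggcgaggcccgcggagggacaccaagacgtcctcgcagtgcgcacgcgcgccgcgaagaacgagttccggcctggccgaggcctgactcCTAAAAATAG
Mef2d, chr3:88142252-88142371, plus strand: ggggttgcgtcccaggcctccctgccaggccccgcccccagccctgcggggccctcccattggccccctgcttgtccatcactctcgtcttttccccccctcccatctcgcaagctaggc
*Smyd1* held a TATAAA match whose first base lay 28 bases before the start and no other match in its window. *Mef2c* held one at 107 bases before its first start, with E-boxes at 234 and 100 bases before it, and one at 22 bases before its second start, and its window furthest downstream held an E-box at 245 bases before the start. *Mef2a* was the only member with a match to the MEF2 site, which began 2 bases before its own start, and *Mef2d* had no match to any of the motifs. *Mef2b* held E-boxes at 28 bases before and 43 bases after its start, and no window of a member held a CArG box. Over 32851 windows of the same length, 3.19% held a MEF2 match, 1.63% a CArG box, 72.3% an E-box and 13.6% TATAAA. The windows differed in base composition, with 72% G and C in *Mef2d*, 62.3% in *Mef2a*, 57% in *Mef2b*, 52% in *Smyd1* and 35.7% to 48.3% in the windows of *Mef2c*. A match is a run of letters and no test of binding.

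The genes lie on different chromosomes of GRCm38 in the GENCODE annotation. *Mef2a* spans chr7:67231163-67372858 on the minus strand, *Mef2b* chr8:70139711-70167488, *Mef2c* chr13:83504034-83667080 and *Mef2d* chr3:88142372-88172086 on the plus strand, and *Smyd1* chr6:71213940-71322233 on the minus strand. The spans of *Smyd1* and *Mef2b* hold the RefSeq start of the gene in their interior, as that of *Mef2c* does for its later starts. The merged exons of *Mef2a*, *Mef2b*, *Mef2c*, *Mef2d* and *Smyd1* measure 14.681 kb, 1.404 kb, 15.715 kb, 5.985 kb and 4.546 kb in this order. Some of these bases are shared with exons of a neighbouring gene, 2.06% of those of *Mef2a* with *Lysmd4* and 8.87% of those of *Mef2d* with 1700113A16Rik on the opposite strand, and 4.42% of those of *Mef2b* with *Borcs8* on the same strand. Since the strand setting of the counting is not stated, reads of the stretches on opposite strands cannot be assigned to one gene with certainty. Reads of the stretch shared by *Mef2b* and *Borcs8* cannot be told apart by strand. *Borcs8* is not listed under that symbol among the counted genes.

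Divided by exon length, *Mef2d* was the most abundant member in wild-type embryos and *Mef2b* the least. Wild-type levels in the *Carm1* line were 9.31 ± 0.0742 CPM per kb for *Mef2d*, 7.52 ± 0.350 for *Smyd1*, 5.39 ± 0.0586 for *Mef2c*, 3.06 ± 0.116 for *Mef2a* and 0.407 ± 0.149 for *Mef2b*. Those in the *Pax3* line were 8.75 ± 0.580 CPM per kb for *Mef2d*, 5.99 ± 0.782 for *Smyd1*, 4.25 ± 0.116 for *Mef2c*, 3.01 ± 0.320 for *Mef2a* and 0.328 ± 0.134 for *Mef2b*. This order held in 3 of 3 libraries of every group, null groups included, and the ranges of neighbouring genes did not overlap in any group. The merged exons hold sequence of all annotated transcripts, so a level per kb is lower than that of a short isoform. In CPM, without division by length, *Mef2c* stood above *Mef2d* in wild-type embryos. The means were 84.6 and 55.7 CPM in the *Carm1* line and 66.8 and 52.4 CPM in the *Pax3* line. The order per kb and the family shares below thus rest on the GENCODE lengths. Of the genes in the count tables, 1296 matched GENCODE only by an older symbol and 347 had no match.

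*Mef2c* and *Smyd1* were lower in null embryos of both lines. The 3 null libraries of the *Pax3* line held 44.1, 40.9 and 46.2 CPM of *Mef2c* and its 3 wild-type libraries 68.4, 64.8 and 67.3 CPM. Every null embryo lay below every wild-type embryo, and the gap between the groups was wider than the range within either. The mean fell from 66.8 ± 1.83 to 43.7 ± 2.67 CPM, 34.5% lower (log2 fold change −0.61, SE 0.064, FDR adjusted *P* = 8.5e-08). *Smyd1* stood at 19.04, 20.03 and 18.96 CPM in the null libraries and at 28.6, 23.2 and 29.9 CPM in the wild-type libraries of this line. The null embryos were close to each other, whereas wild-type replicate 2 lay nearer to them than the other 2 wild-type embryos did. The mean fell from 27.3 ± 3.55 to 19.3 ± 0.595 CPM, 29.2% lower (log2 fold change −0.50, SE 0.091, FDR adjusted *P* = 2.2e-04). Across all genes tested in the *Pax3* line, 10.5% were called lower and 14% higher, and 3 of the 5 members were called lower and 0 higher. Because the RNA came from whole embryos, fewer cells of a type and less RNA per cell cannot be told apart for any of these genes.

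Both genes had smaller fold changes in the *Carm1* line. *Mef2c* stood at 68.8, 71.1 and 71.0 CPM in null libraries and at 85.7, 84.0 and 84.1 CPM in wild-type libraries, a fall of 16.9% (log2 fold change −0.27, SE 0.049, FDR adjusted *P* = 2.2e-04). *Smyd1* stood at 27.4, 26.9 and 28.7 CPM in null libraries and at 34.9, 35.3 and 32.4 CPM in wild-type libraries, a fall of 19.1% (log2 fold change −0.31, SE 0.069, FDR adjusted *P* = 0.0023). Neither gene overlapped between the groups. Of all genes tested in this line 7.83% were called lower and 5.49% higher, and of the members 2 of 5 were called lower and 0 higher. By size of the fold change *Mef2c* and *Smyd1* were not extreme here, since 11.99% and 10.3% of all tested genes had a lower log2 fold change, against 1.70% and 2.67% in the *Pax3* line. Over the 15461 genes tested in both lines, 187 (1.21%) were called lower in both, *Mef2c* and *Smyd1* among them.

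**Figure D1:**
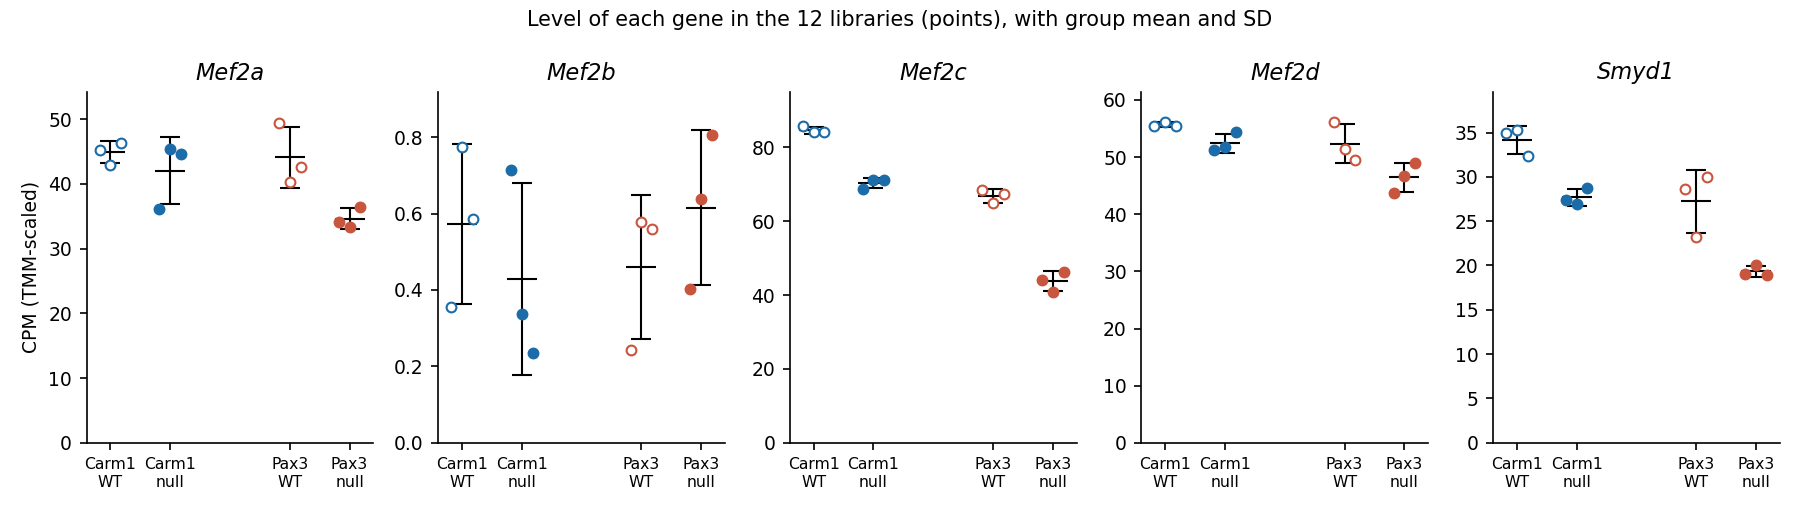
CPM of each gene (y axis, linear and starting at 0, with its own scale in each panel) in the 12 libraries, with wild-type embryos as open and null embryos as filled points, the *Carm1* line in blue and the *Pax3* line in red, and bars for the group mean and SD. The null points of *Mef2c* and *Smyd1* lie below the wild-type points of the same line in both lines, whereas the points of *Mef2b*, all under 1 CPM, overlap in both.

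*Mef2a* and *Mef2d*, which are transcribed in most tissues, were not called in the *Carm1* line. *Mef2a* stood at 36.1, 45.4 and 44.6 CPM in null libraries and at 45.3, 43.0 and 46.3 CPM in wild-type libraries of that line. Null replicate 1 lay below all other embryos and the rest overlapped (log2 fold change −0.09, 95% interval −0.24 to 0.05, FDR adjusted *P* = 0.43). Without that replicate the log2 fold change was 0.0065 (FDR adjusted *P* = 0.97). *Mef2d* stood at 51.2, 51.7 and 54.3 CPM in null libraries and at 55.4, 56.2 and 55.5 CPM in wild-type libraries, and its log2 fold change of −0.09 (95% interval −0.20 to 0.02) had an FDR adjusted *P* of 0.31. The groups of *Mef2d* did not overlap, as was so for 3 of the 5 members and for 30% of all genes tested in this line.

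*Mef2a* was called lower in the *Pax3* line and *Mef2d* was not. *Mef2a* stood at 34.1, 33.3 and 36.4 CPM in null libraries and at 49.4, 40.4 and 42.6 CPM in wild-type libraries, with every null embryo below every wild-type embryo. Its mean fell from 44.1 ± 4.69 to 34.6 ± 1.62 CPM (log2 fold change −0.35, SE 0.081, FDR adjusted *P* = 0.0023). *Mef2d* stood at 43.8, 46.7 and 48.9 CPM in null libraries and at 56.2, 51.5 and 49.4 CPM in wild-type libraries, where null replicate 3 came within 1 CPM of wild-type replicate 3. The log2 fold change of *Mef2d* was −0.17 (95% interval −0.32 to −0.03, SE 0.070) with an FDR adjusted *P* of 0.074, and without wild-type replicate 3 it was −0.21 with an FDR adjusted *P* of 0.040. Again the groups did not overlap for 4 of the 5 members, *Mef2d* included, and for 39.6% of all genes tested.

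The values of *Mef2a* and *Mef2c* in the *Pax3* line stood beside a trend with gene length over the whole table. Of the 1458 tested genes with 10 kb or more of exons, as in *Mef2a* and *Mef2c*, 27.0% were called lower and 2.26% higher in Pax3 Sp2H/Sp2H embryos, with a median log2 fold change of −0.12. Of the 7068 genes under 4 kb, 4.57% were called lower and 21.7% higher, with a median of 0.09. The class of 10 kb or more in the *Carm1* line had a median of −0.01, with 10.8% called lower and 5.49% higher. Within that class in the *Pax3* line, 1.37% of genes had a lower log2 fold change than *Mef2c* and 4.60% a lower one than *Mef2a*. Of the 7089 genes from 4 to under 10 kb, 2.05% had a lower one than *Smyd1* and 21.4% a lower one than *Mef2d*. When each library was given offsets for the length and GC content of a gene's exons, *Mef2c* in the *Pax3* line was at −0.43 (FDR adjusted *P* = 9.4e-06) and *Smyd1* at −0.49 (FDR adjusted *P* = 3.6e-04), *Mef2a* was no longer called (−0.18, FDR adjusted *P* = 0.070) and *Mef2d* was called (−0.22, FDR adjusted *P* = 0.017). With these offsets the *Carm1* line gave −0.22 for *Mef2c* and −0.28 for *Smyd1*, both still called.

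**Figure D2:**
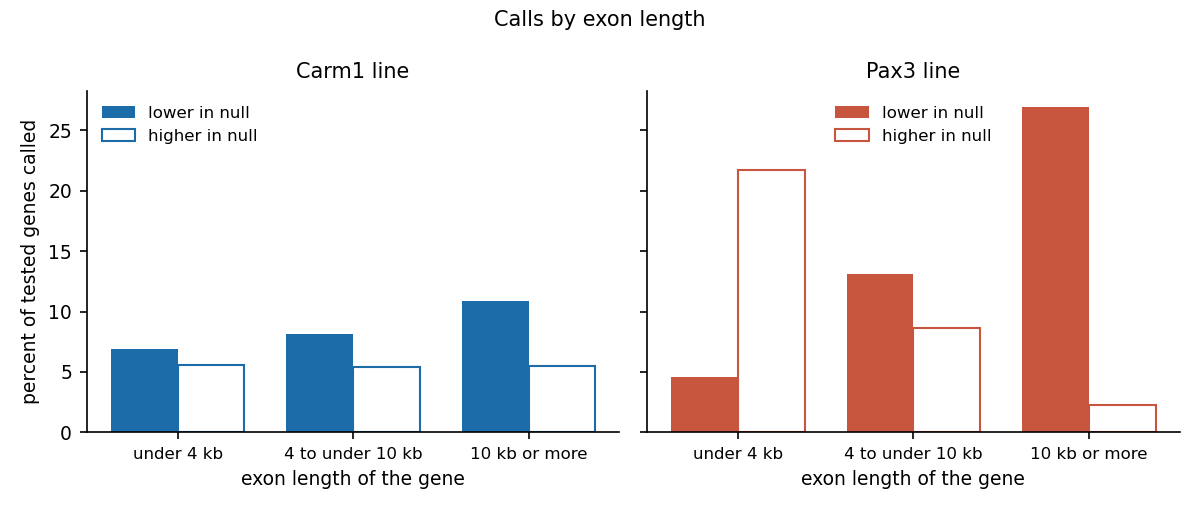
Percent of tested genes called lower (filled bars) and higher (open bars) in null embryos (y axis) for 3 classes of exon length (x axis) in each line. In the *Pax3* line the percent called lower grows from 4.57% to 27.0% with length while the percent called higher shrinks from 21.7% to 2.26%, and in the *Carm1* line the bars differ less between classes.

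*Mef2b*, the most divergent member of the family, was close to the limit of detection. The null libraries held 13, 6 and 4 counts and the wild-type libraries 6, 18 and 12 counts in the *Carm1* line. The *Pax3* line gave 9, 14 and 19 counts in null and 5, 10 and 13 counts in wild-type libraries. The groups overlapped in both lines, and summed over 3 libraries the counts were 23 (95% Poisson interval 14.6 to 34.5) and 36 (25.2 to 49.8) in null and wild-type embryos of the *Carm1* line, and 42 (30.3 to 56.8) and 28 (18.6 to 40.5) in those of the *Pax3* line, intervals that cover counting error only. The fitted log2 fold changes were −0.44 (95% interval −1.44 to 0.56) and 0.42 (−0.48 to 1.33), with FDR adjusted *P* values of 0.63 and 0.52, so no difference of *Mef2b* was detectable at this depth.

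The genotype effect on *Mef2c* was larger in the *Pax3* line than in the *Carm1* line. In one fit of all 12 libraries, the log2 fold change of *Mef2c* in the *Carm1* line less that in the *Pax3* line was 0.35 (95% interval 0.20 to 0.51, FDR adjusted *P* = 0.0014), and 19.1% of all genes tested passed the threshold in this comparison. With length and GC offsets, a setting chosen after seeing the data, the difference was 0.21 (FDR adjusted *P* = 0.032). The difference for *Mef2a* was 0.27 (95% interval 0.04 to 0.50, FDR adjusted *P* = 0.087), which became 0.37 (FDR adjusted *P* = 0.015) without null replicate 1 of the *Carm1* line and 0.33 (FDR adjusted *P* = 0.034) without wild-type replicate 2 of the *Pax3* line. For *Smyd1* it was 0.20 (95% interval −0.04 to 0.45, FDR adjusted *P* = 0.24), and 0.30 (FDR adjusted *P* = 0.044) without wild-type replicate 2 of the *Pax3* line, the embryo with the lowest wild-type level of *Smyd1*. For *Mef2d* and *Mef2b* the differences were 0.09 (95% interval −0.08 to 0.27) and −0.85 (−2.23 to 0.52), with FDR adjusted *P* values of 0.48 and 0.41. The intervals of *Smyd1*, *Mef2d* and *Mef2b* span 0 and leave room for effects of unequal size in the lines.

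**Figure D3:**
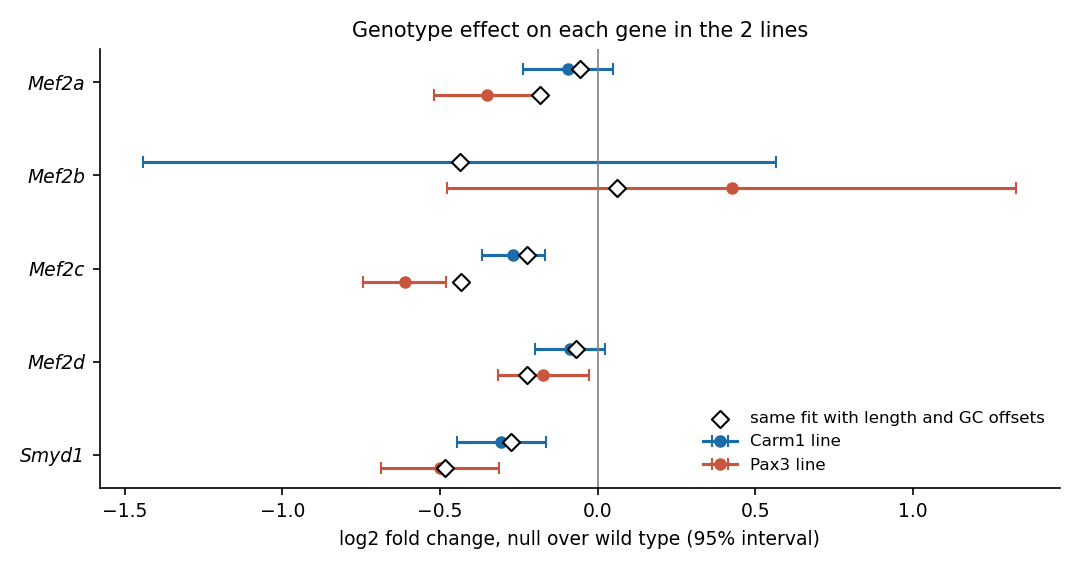
Log2 fold change of null over wild type (x axis) for each gene in the *Carm1* line (blue) and the *Pax3* line (red), with unadjusted 95% intervals as bars and, as open diamonds, the value of the same fit with offsets for exon length and GC content. The intervals of *Mef2c* and *Smyd1* lie below 0 in both lines, and those of *Mef2b* span 0 in both. In the *Pax3* line the intervals of *Mef2a* and *Mef2d* lie below 0, with diamonds at −0.18 and −0.22. *Mef2d* was not called in that line without the offsets (FDR adjusted *P* = 0.074, edgeR).

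As a share of the summed CPM per kb of the 4 *Mef2* genes, *Mef2c* was lower and *Mef2d* higher in null embryos of both lines. In the *Pax3* line *Mef2c* made up 22.03%, 19.8% and 20.8% in null libraries and 25.2%, 26.0% and 27.0% in wild-type libraries, and *Mef2d* made up 57.5%, 59.4% and 57.7% in null and 54.4%, 54.1% and 52.1% in wild-type libraries. The *Carm1* line showed smaller steps, in which *Mef2c* made up 27.5%, 27.4% and 26.9% in null libraries and 30.2%, 29.3% and 29.4% in wild-type libraries, while *Mef2d* made up 53.8%, 52.4% and 54.0% in null and 51.3%, 51.6% and 50.9% in wild-type libraries. None of these groups overlapped, and each of these 4 differences had an exact two-sided permutation *P* of 0.1, the smallest that 3 embryos against 3 can give. The shares of a library add up to the whole, so a lower share of *Mef2c* raises the others, and these differences are not separate evidence. The level of *Mef2d* itself was not higher in null embryos (log2 fold change −0.09 in the *Carm1* line and −0.17 in the *Pax3* line). The shares of *Mef2a* (15.5% to 19.5%) and *Mef2b* (0.999% to 4.05%) overlapped between the groups in both lines. The shares set a gene of 15.715 kb against one of 5.985 kb, so the length trend of the *Pax3* line enters them. The log2 fold change of *Mef2c* less that of *Mef2d* was −0.44 in the *Pax3* line and −0.21 with length and GC offsets, and in the *Carm1* line it was −0.18 and −0.16.

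**Figure D4:**
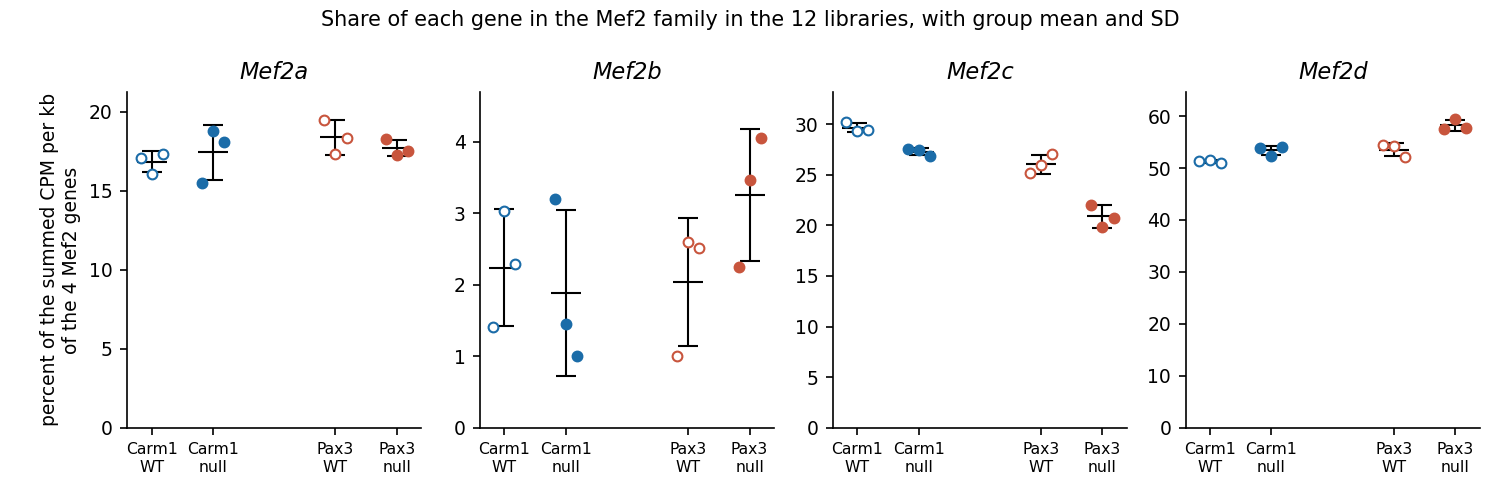
Share of each *Mef2* gene in the summed CPM per kb of the family (y axis in percent, starting at 0, with its own scale in each panel) in the 12 libraries, drawn as in the plot of CPM by library, with the group mean and SD. Null points of *Mef2c* lie below and null points of *Mef2d* above the wild-type points of the same line, and those of *Mef2a* and *Mef2b* overlap with them.

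Regulators and partners of MEF2 were taken from a list of 26 genes, all tested in both lines. Over all genes tested, 7.83% were called lower and 5.49% higher in the *Carm1* line. The *Pax3* line had 10.5% and 14%, and the counts of this list and of those below are read beside these shares. Of the 26 genes, 4 were called lower and 0 higher in the *Carm1* line, with a median log2 fold change of −0.03 against 0.0014 over all genes tested. These were *Carm1* itself, the kinase gene *Camk2d* (34.7 ± 0.460 to 24.8 ± 1.09 CPM, −0.48 on the log2 scale, FDR adjusted *P* = 6.7e-06), *Myog* (61.5 ± 1.81 to 51.2 ± 0.944 CPM, −0.26, FDR adjusted *P* = 8.1e-04), which encodes the MYOD family factor myogenin, and the class IIa deacetylase gene *Hdac5* (116 ± 7.87 to 103 ± 2.63 CPM, −0.17, FDR adjusted *P* = 0.016). The other class IIa genes *Hdac4*, *Hdac7* and *Hdac9* were not called, with log2 fold changes from −0.17 to −0.05. *Myod1* was at −0.06 (FDR adjusted *P* = 0.66). Of the cardiac regulators that act upstream of or beside *Mef2c*, *Isl1* (0.02), *Gata4* (−0.06), *Foxh1* (0.25), *Nkx2-5* (0.28) and *Hand2* (0.05), none was called.

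Of the same 26 genes, 8 were called lower and 3 higher in the *Pax3* line, with a median of −0.07 against −0.0026 over all genes tested. The genes with the largest falls were *Myod1* (26.9 ± 1.77 to 11.1 ± 1.52 CPM, −1.28 on the log2 scale, FDR adjusted *P* = 4.4e-10), *Vgll2*, a TEAD cofactor of muscle (−1.17, FDR adjusted *P* = 5.9e-07), *Myog* (47.1 ± 3.19 to 22.1 ± 2.38 CPM, −1.09, FDR adjusted *P* = 6.9e-10) and *Isl1*, a factor of heart progenitors and motor neurons (−0.42, FDR adjusted *P* = 2.3e-04). *Hand2* (0.39), *Hdac7* (0.23) and *Srf* (0.22) rose, with FDR adjusted *P* values of 1.6e-04, 0.0063 and 0.0047, but with length and GC offsets 0 of the 26 were called higher. *Hdac4*, *Hdac5*, *Hdac9*, *Gata4*, *Foxh1* and *Nkx2-5* were not called, with log2 fold changes from −0.12 to 0.28. In both lines *Myog* was called lower, whereas *Camk2d* (−0.07, FDR adjusted *P* = 0.63 in the *Pax3* line) and *Myod1* were each called in a single line.

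Known targets of MEF2 other than *Smyd1* were taken from a list of 26 genes, of which 23 were tested in each line. Carm1 KO/KO embryos had 7 of these called lower and 1 higher, with a median log2 fold change of −0.24. The largest falls were in *Pgam2*, a phosphoglycerate mutase of muscle (−0.58, FDR adjusted *P* = 0.0011), *Myh6*, a cardiac myosin heavy chain (−0.47, FDR adjusted *P* = 0.040), *Ppargc1a*, a coactivator of mitochondrial genes (−0.45, FDR adjusted *P* = 0.015), and *Srpk3*, a muscle kinase (−0.44, FDR adjusted *P* = 0.030). *Jun* was called higher (0.14, FDR adjusted *P* = 0.049), a call lost when any library but wild-type replicate 1 was left out. The call was also lost with DESeq2, with a minimum of 10 counts and in the fit of all 12 libraries. It was lost as well with the replicate number as a block, with the term for Y-linked counts and without robust estimates. Without null replicate 2 the targets called lower were 4. Pax3 Sp2H/Sp2H embryos had 3 of the 23 called lower and 3 higher, with a median of −0.03. These counts lie near the shares over all genes tested in that line, 10.5% called lower and 14% higher. *Myog*, *Lmod3*, an actin filament nucleator (−0.997, FDR adjusted *P* = 1.4e-04), and *Des*, the muscle intermediate filament desmin (−0.36, FDR adjusted *P* = 0.0018), fell, and *Nppa* (0.61, FDR adjusted *P* = 1.5e-05), *Myl2* (0.44, FDR adjusted *P* = 4.1e-04) and *Jun* (0.21, FDR adjusted *P* = 0.011) rose. *Nppa*, a peptide hormone of the atria, and *Myl2*, the ventricular myosin light chain, are genes of the heart. With length and GC offsets 5 of the 23 were called lower.

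Partners of SMYD1 and thick filament genes were taken from a list of 17, all tested in both lines. Carm1 KO/KO embryos had 10 called lower and 0 higher (6 lower without null replicate 3 and 5 in the fit of all 12 libraries), with a median of −0.31. The largest falls were in *Mybph*, a myosin binding protein (20.1 ± 2.06 to 12.6 ± 0.399 CPM, −0.67 on the log2 scale, FDR adjusted *P* = 5.1e-06), *Myh3*, embryonic myosin (−0.51, FDR adjusted *P* = 0.0012), *Myh6* and *Unc45b*. Pax3 Sp2H/Sp2H embryos had 9 called lower (5 without null replicate 1) and 1 higher, with a median of −0.29. These falls were led by *Myom2*, of the M-band (−1.41, FDR adjusted *P* = 0.018), *Myh8*, perinatal myosin (−1.09, FDR adjusted *P* = 0.022), *Myh3* (−1.03, FDR adjusted *P* = 0.021) and *Mybph* (−0.83, FDR adjusted *P* = 1.8e-05). *Mybpc3*, the cardiac myosin binding protein C, was called higher (0.33, FDR adjusted *P* = 0.016), a call lost without wild-type replicate 1, wild-type replicate 2 or null replicate 2, and with length and GC offsets. *Unc45b*, the muscle myosin chaperone that works with SMYD1, fell in both lines, from 18.5 ± 2.69 to 13.9 ± 0.797 CPM in the *Carm1* line (−0.40, FDR adjusted *P* = 0.0056) and from 13.6 ± 0.0285 to 10.4 ± 0.625 CPM in the *Pax3* line (−0.39, FDR adjusted *P* = 0.0073).

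The other SMYD methyltransferases, which are not restricted to muscle, were not called in either line by edgeR or DESeq2. Log2 fold changes in the *Carm1* line were −0.02 for *Smyd5*, 0.12 for *Smyd2*, 0.16 for *Smyd4* and 0.30 for *Smyd3*, with FDR adjusted *P* values of 0.88, 0.22, 0.33 and 0.058. At an unadjusted *P* under 0.05 both tools had 1 of the 4 in this line and 0 in the *Pax3* line. Without wild-type replicate 1, and with length and GC offsets, 1 of the 4 was called higher there. Their values in the *Pax3* line were −0.08 for *Smyd5*, 0.13 for *Smyd2*, 0.11 for *Smyd4* and 0.02 for *Smyd3*, with FDR adjusted *P* values of 0.40, 0.17, 0.46 and 0.89. All 3 genes other than *Smyd5* thus had a positive log2 fold change in both lines, while that of *Smyd1* was negative in both.

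The summed level of skeletal muscle markers was lower in every null embryo than in the wild-type embryos of its line, but not every marker was called. Of 20 markers, 18 were tested in each line, and *Myf6* and *Ckm* were too low to test. Among them 8 were called lower and 0 higher in the *Carm1* line, with a median of −0.32, and their summed level ran from 538 to 570 CPM in null and from 697 to 814 CPM in wild-type embryos. The falls were led by the fast troponins *Tnni2* (−1.16, FDR adjusted *P* = 1.6e-04) and *Tnnt3* (−1.09, FDR adjusted *P* = 8.3e-06) and the myosin light chains *Myl1* (−0.82, FDR adjusted *P* = 7.8e-12) and *Mylpf* (−0.64, FDR adjusted *P* = 9.7e-10). Pax3 Sp2H/Sp2H embryos had 13 called lower and 0 higher, with a median of −0.95, and the sums ran from 215 to 244 CPM in null and from 382 to 462 CPM in wild-type embryos. There the falls were led by *Myod1* and by *Chrna1* (−1.26, FDR adjusted *P* = 1.2e-05), *Cacng1* (−1.16, FDR adjusted *P* = 0.018) and *Chrnd* (−1.14, FDR adjusted *P* = 0.0077), which encode subunits of the acetylcholine receptor and the calcium channel of the muscle membrane. *Tnni2* (−0.13) and *Tnnt3* (0.13) were not called in that line, with FDR adjusted *P* values of 0.81 and 0.63. None of the 20 markers was at 0 in a whole line, and the part of these markers in the levels of *Mef2c* and *Smyd1* was not tested.

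Summed cardiac markers lay below the wild-type range in null embryos of the *Carm1* line and above it in those of the *Pax3* line, and the difference between the lines was not tested for the list. Of 12 markers, *Myh6* and *Tnni3*, cardiac troponin I (−0.39, FDR adjusted *P* = 0.044), were called lower and 0 higher in the *Carm1* line, with a median of −0.13 and sums of 174 to 181 CPM in null and 202 to 224 CPM in wild-type embryos. Leaving out null replicate 2 or 3, or fitting all 12 libraries together, brought the 2 calls to 0, and leaving out null replicate 1 or wild-type replicate 1 or 3 to 1. With DESeq2, the replicate number as a block, the term for Y-linked counts or no robust estimates, 1 call was left as well. The *Pax3* line had 4 of 12 called higher and 0 lower, with a median of 0.28 and sums of 209 to 248 CPM in null and 164 to 177 CPM in wild-type embryos. *Myl7*, the atrial myosin light chain (0.82, FDR adjusted *P* = 1.6e-07), *Nppa*, *Myl2* and *Tnni3* (0.38, FDR adjusted *P* = 0.045) rose. The sums were not adjusted for exon length, so the length trend of the *Pax3* line can enter them. *Mef2c* and *Smyd1*, which are active in both kinds of muscle, were thus lower in a line where the summed skeletal markers were lower and the summed cardiac markers higher, and in a line where both sums were lower. *Myog*, *Myod1*, *Myf6*, *Ckm*, *Myh3*, *Myh6*, *Myh8*, *Myom1*, *Hdac9*, *Nkx2-5*, *Nppa* and *Myl2* stand on more than 1 of the lists, so the counts are not separate evidence.

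Relative to the summed skeletal markers, the mean levels of *Mef2c* and *Smyd1* were higher in null embryos, but an exact test of 3 against 3 embryos cannot give a *P* under 0.1. The mean log2 ratio of *Smyd1* to the sum was higher by 0.13 in null than in wild-type embryos of the *Carm1* line (exact two-sided permutation *P* = 0.1), or by 0.085 without wild-type replicate 1. In the *Pax3* line it was higher by 0.39 (exact two-sided permutation *P* = 0.2), and the groups overlapped, with null replicate 3 at −3.69 and wild-type replicate 3 at −3.67. For *Mef2c* the ratio was higher by 0.17 and 0.27 (exact two-sided permutation *P* = 0.1 in both lines). *Myh3* weighs most in the sum, with 262 of a mean of 749 CPM in wild-type embryos of the *Carm1* line and 142 of 421 CPM in those of the *Pax3* line. When the mean of the markers' log2 CPM stood in for the log2 of their sum, the values in the *Pax3* line were 0.22 for *Smyd1* and 0.089 for *Mef2c* (exact two-sided permutation *P* = 0.1 and 0.2). Relative to the summed cardiac markers, a comparison chosen after seeing the data, the log2 ratio of null less wild type was −0.07 for *Smyd1* and −0.03 for *Mef2c* in the *Carm1* line, and −0.87 and −0.996 in the *Pax3* line. Both genes thus stood between the skeletal and the cardiac sums in their change in the *Pax3* line. These ratios were not adjusted for exon length, so the length trend of that line can enter them.

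**Figure D5:**
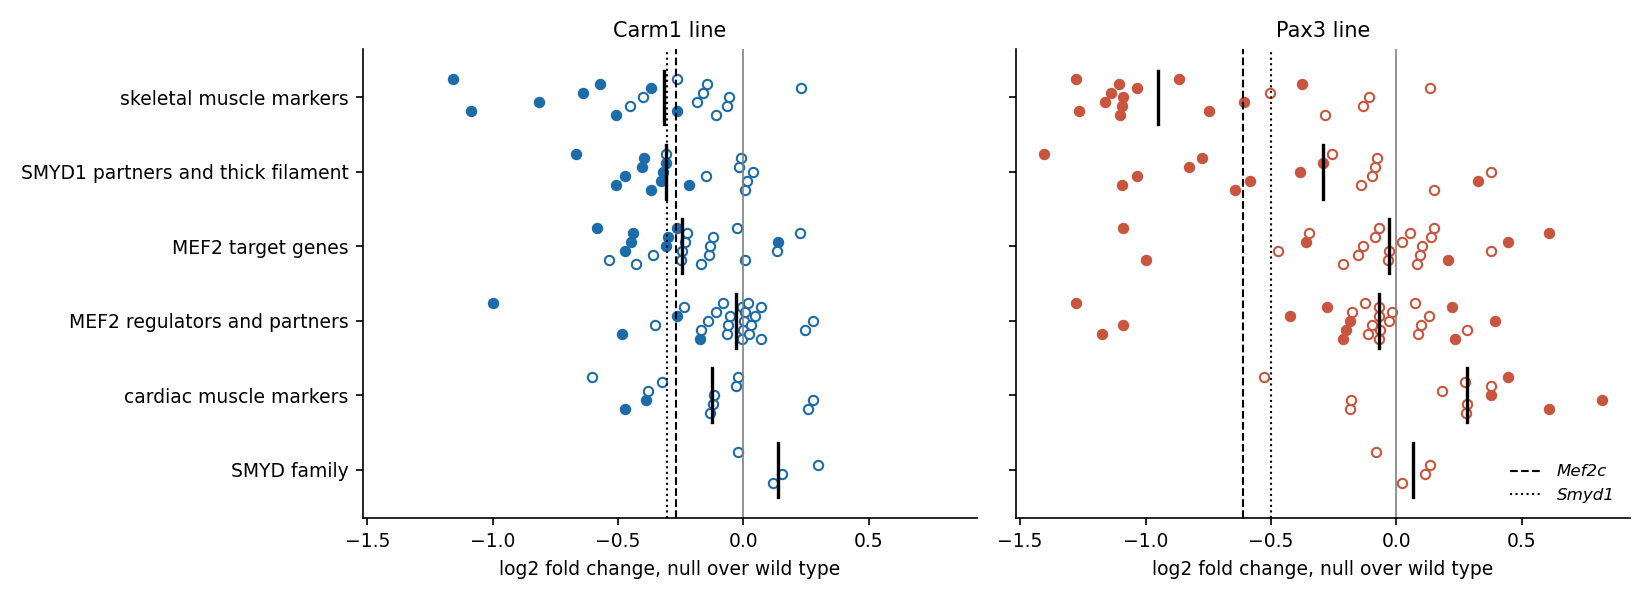
Log2 fold change of null over wild type (x axis) of every tested gene of 6 lists (rows) in the *Carm1* line (left) and the *Pax3* line (right), with called genes as filled and other genes as open points, spread vertically for legibility, the median of each list as a black bar, and the values of *Mef2c* (dashed line) and *Smyd1* (dotted line). The medians of the skeletal markers lie at −0.32 and −0.95 and those of the cardiac markers at −0.13 and 0.28.

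Markers of endothelium and neurons, in which *Mef2c* is active, were read beside it. Those of hepatocytes and erythroid cells were read as markers of further tissues. Of 10 endothelial markers, 3 were called higher (6 with length and GC offsets) and 0 lower in the *Carm1* line, with sums of 431 to 451 CPM in null and 396 to 428 CPM in wild-type embryos, and 2 were called higher (1 with the offsets) and 0 lower (2 without null replicate 2 and 1 without wild-type replicate 3) in the *Pax3* line, with overlapping sums of 377 to 425 and 393 to 404 CPM. Of 12 neuronal markers, 5 were called lower and 0 higher in the *Carm1* line (3 lower without null replicate 1 or wild-type replicate 2), and 6 lower and 1 higher in the *Pax3* line (0 higher without null replicate 1 and with the offsets), with medians of −0.15 and −0.17. Of 6 hepatocyte markers, 6 were called lower in the *Carm1* line, with sums of 703 to 814 CPM in null and 1315 to 1596 CPM in wild-type embryos, and 1 in the *Pax3* line (2 without wild-type replicate 1 or 2 or null replicate 3, and 1 higher without wild-type replicate 3). Of 6 erythroid markers, 3 were called lower and 1 higher in the *Carm1* line and 0 in the *Pax3* line (1 higher without wild-type replicate 2), and their sums overlapped between the groups in both lines. The call higher in the *Carm1* line was lost without wild-type replicate 2 or any 1 of the null replicates, while 2 were called higher with DESeq2, in the fit of all 12 libraries and without wild-type replicate 3. Their part in the levels of the members was not tested.

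Patterns like those of the members were looked for among the 12306 genes that averaged 5 CPM or more, by Pearson's r of log2 CPM centred within each line over the 12 libraries, which share their line, genotype group and depth. Closest to *Mef2c* were *Mylk4*, a myosin light chain kinase (r = 0.974), *Prdm12*, a factor of sensory neurons (r = 0.973), and *Klhl41*, a sarcomere protein (r = 0.972). When levels were centred within each group instead, r was 0.77 for *Mylk4*, 0.06 for *Prdm12* and 0.31 for *Klhl41*. Closest to *Smyd1* were *Nav3* (r = 0.961), *Kpna6* (r = 0.958) and *Mbnl2* (r = 0.949), with r from 0.69 to 0.73 within groups. *Smyd1* itself stood further down among the genes closest to *Mef2c*, with r = 0.905 centred within lines and 0.18 centred within groups. Closest to *Mef2a* were 4932438A13Rik, *Eea1* and *Dopey1* (r = 0.974, 0.962 and 0.960), and closest to *Mef2d* were *Egfr*, *Anxa6* and *Sytl2* (r = 0.950, 0.950 and 0.948), each with r of at least 0.88 within groups. For *Mef2b*, whose counts were few, they were *Tsr2*, *Cnppd1* and *Ebp* (r = 0.889, 0.849 and 0.847). These correlations are over 12 libraries in 4 groups and are given as a description.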

How the data were processed

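Embryos were grouped by the genotype in their labels. The deposited values are raw counts per gene and library, which the authors made by aligning paired reads to mm10 with STAR and counting on exons with featureCounts, without normalization. Tool versions and the strand setting are not given in the sources used here. Library depth is given above.

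Each line was fitted over all genes kept by filterByExpr with edgeR (version 4.0.16, R 4.3.3), using TMM factors, the robust quasi-likelihood test and Benjamini-Hochberg adjustment with a threshold of 0.05. The difference between the lines was a contrast in one fit of all 12 libraries. Shares and ratios, computed per library, were compared by exact two-sided permutation tests. Likeness used log2(CPM + 0.5). The fits were tested on simulated counts first. The members, gene lists, tests and named-gene rule were chosen with earlier results of these data known. Named genes are the members, the targeted genes, up to 4 called genes with the largest fold change in each direction from each list, regulators of *Mef2c* or *Smyd1*, SMYD genes, and the 3 genes most like each member. *Mymk* was matched through its older symbol *Tmem8c*.

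Alternatives were DESeq2 (version 1.42.0), RLE and upper-quartile factors, no filter, a minimum of 10 counts, a block for the replicate number, a single fit of both lines, a term for Y-linked counts (at least 100), length and GC offsets (splines with 5 degrees of freedom), raw count shares, the mean of the markers' log2 CPM (with 0.1 CPM added) and leaving out each library. Chosen after seeing the data were fits without robust estimates, the offsets and the Y-linked term in the difference between the lines, and the cardiac ratios. No protein sequence was used here.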

Additional observations from a re-analysis of the deposited data

Results flagged for a closer look

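The genotype effect on *Mef2c* differed between the lines in the test of the difference itself, with a log2 fold change in the *Carm1* line less that in the *Pax3* line of 0.35 (edgeR, FDR adjusted *P* = 0.0014). *Mef2c* was lower in 3 of 3 null embryos of each line. Line, strain and laboratory cannot be told apart here.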

How the results depend on the processing

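The calls of *Mef2c* and *Smyd1* held under all 16 alternatives in each line, with log2 fold changes from −0.28 to −0.22 and from −0.34 to −0.28 in the *Carm1* line and from −0.66 to −0.43 and from −0.59 to −0.42 in the *Pax3* line. The difference of *Mef2c* between the lines held under all 21 alternatives (0.21 to 0.40, FDR adjusted *P* from 5.0e-04 to 0.032). *Mef2d* of the *Pax3* line was called in the fit of all 12 libraries (−0.18, FDR adjusted *P* = 0.022) and with length and GC offsets (−0.22), and *Mef2a* was not called with those offsets (−0.18), which by construction take out trends with length and GC content. With the offsets, 1870 genes were called higher and 1289 lower in the *Carm1* line (3159 against 2106), where 868 and 1238 were called otherwise, and 1521 and 1212 against 2198 and 1653 in the *Pax3* line. The median log2 fold change of all genes was 0.03 with them in the *Carm1* line. The ratio of *Mef2c* to the skeletal markers in the *Pax3* line moved from 0.27 to 0.089 with the mean of log2 CPM, and the share of *Mef2a* there turned from −0.69 to 0.70 percentage points with raw count shares. The cause was not tested.

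Leaving out 1 library at a time gave 1224 to 2290 called genes in the *Carm1* line, 2454 to 4103 in the *Pax3* line, a range of −0.15 to 0.0065 for *Mef2a* in the *Carm1* line, and −0.21 to −0.12 for *Mef2d* in the *Pax3* line. The differences between the lines ranged from 0.18 to 0.37 for *Mef2a* and from 0.13 to 0.30 for *Smyd1*. The lowest counts of calls came without null replicate 1 of the *Carm1* line and null replicate 3 of the *Pax3* line.

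Deviations of same-numbered libraries correlated at −0.04 to 0.0008 in the *Carm1* line, in each case below the best other pairing. In the *Pax3* line replicates 1 and 3 correlated above the best other pairing (0.13 against −0.06 and 0.23 against 0.16). Replicate 2 of that line lay below it (−0.09 against 0.24). Correlations this weak, over 3 replicates, cannot decide whether the replicate numbers pair the samples. With the replicate number as a block, 705 genes were called higher and 1082 lower in the *Carm1* line and 2332 and 1845 in the *Pax3* line, and no call of a member changed. With a minimum of 10 counts *Mef2b* gave no value, and DESeq2 gave it no adjusted *P* in the *Pax3* line and in the difference.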
